A study of Mus musculus with 13 samples.

Results

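The comparison set the 3 BSF_C libraries against the 3 con libraries over every gene counted, 6 of the 13 libraries of a mouse jejunum RNA sequencing study, chosen by their labels alone. BSF_C is labelled as the breakfast skipping pattern together with control, and the labels say no more about it. Control mice made up con. The feeding hours of both groups, the hour of sampling, and the strain, sex and age of the mice are stated nowhere in the labels. Of the remaining groups, BSF (2 libraries) was fed from ZT16 to ZT24, LSF (3) from ZT12 to ZT16 and again from ZT20 to ZT24, and DSF (2) from ZT12 to ZT20, each for 2 weeks. ZT is zeitgeber time, the hour counted from lights on. The mice are described as sharing 1 environment and cage, although the feeding hours of these groups differed. Jejunal cells were digested out of the tissue and sorted for EpCAM, an epithelial surface protein, with CD45+, CD11b+, CD3+ and B220+ leukocytes gated away, and their polyadenylated RNA was sequenced.

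The jejunum digests and takes up most dietary fat, sugar and protein. Its villi are lined by enterocytes, whose brush border carries the digestive enzymes and transporters, and by goblet, enteroendocrine and tuft cells. Crypts between the villi hold the dividing stem cells and the Paneth cells, which secrete antimicrobial proteins. The time of feeding is a known cue for the intestinal clock, and many genes of absorption and defence cycle through the day in mice.

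Depth differed between the groups. Total counts were 7793296 to 8269342 per library in BSF_C and 4851239 to 5202146 in con, and the number of genes with a count was 16443 to 16556 in BSF_C and 14688 to 14957 in con. Levels are given as CPM, counts scaled to a fixed library size adjusted by trimmed means, and 3 counts summed over a group correspond to 0.121 CPM in BSF_C and 0.214 CPM in con, which covers counting error only. Con was set apart from the 10 remaining libraries, at -122.2 to -116.6 on a first principal component that carried 77.4% of the variance, while the others lay at 29.7 to 40.9. Scaled chi-square values for pairs of libraries, near 1 where only counting error separates them, were 1.67 to 2.01 between BSF_C libraries, 2.17 to 4.11 between con libraries, 68.0 to 75.0 between BSF_C and con, and 1.63 to 2.37 between BSF_C and BSF. The labels name no batch, so a con batch and the con group cannot be told apart, in this and in every result against con. The labels call the libraries biological replicates without naming separate mice, so the p-values cover the spread of these libraries and nothing wider.

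Most of the transcriptome differed between BSF_C and con. Of 14300 genes tested, 5695 (39.8%) were called higher in BSF_C and 4749 (33.2%) lower by edgeR's quasi-likelihood F test (adjusted p under 0.05, Benjamini-Hochberg), together 10444 genes (73%). For 2908 of the higher and 1239 of the lower genes the difference was at least 2-fold, together 29% of the genes tested. In 10369 genes (72.5%) no BSF_C library overlapped a con library. Against these shares, a list of genes with 4 of 10 members higher and 3 of 10 lower was like the table as a whole. Over all tested genes the log2 fold change had a median of 0.12, and of 0.28 with library totals alone, so a shift of that size in a list says little. The share called higher varied with GC content, without a steady trend. In the fifth of genes with the lowest GC content 54.7% were called higher and 15.1% lower, with a median log2 fold change of 0.42, and in the fifth with the shortest transcripts the median was 0.39. Below, "rose" and "fell" are written of genes called in this test, and each error on a log2 fold change is an SE taken from the F of that test. Amounts given after "rose by" and "fell by" are log2 fold changes. Genes named with a fold change alone, genes named as not called, and Fos, Isg15, Krt14 and Oas3 lie mostly outside the rule for named genes and were chosen after their values were seen.

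**Figure D1:**
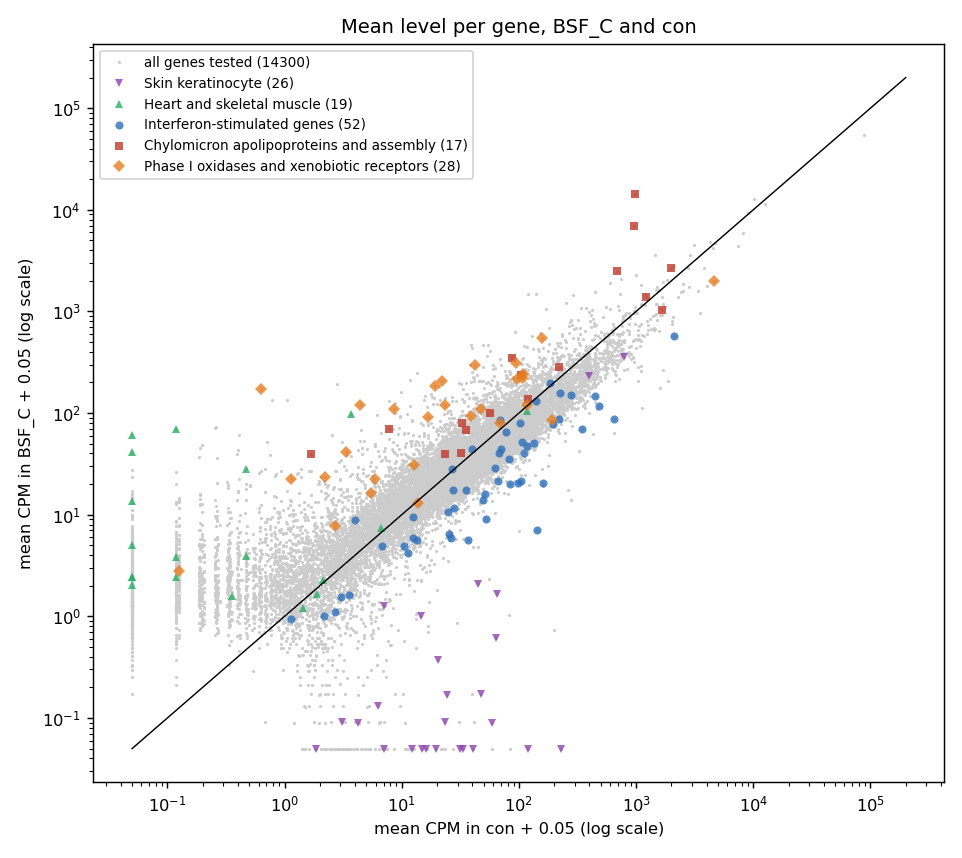
Mean CPM of each tested gene in BSF_C (vertical) against con (horizontal), 3 libraries each, both on log axes with 0.05 CPM added, and the line of equal levels. Coloured marks are members of 5 gene lists: skin keratinocyte genes lie far below the line, most heart and skeletal muscle genes far above it, chylomicron and phase I oxidase genes mostly above it, and interferon-stimulated genes mostly below it.

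The sorted cells carried the defining transcripts of intestinal epithelium in both groups. Epcam (chromosome 17, 87635979 to 87651129 in GRCm38), the antigen of the sort, had 359, 335 and 358 CPM in BSF_C, against 211, 185 and 183 CPM in con, and rose by 0.86 ± 0.06 on the log2 scale. Krt20, a keratin of mature enterocytes, rose by 1.91 ± 0.05, and Lgals4, an intestinal galectin, by 1.36 ± 0.05. E-cadherin (Cdh1) had 763, 751 and 743 CPM in BSF_C, against 2014, 1895 and 2152 CPM in con, and fell by 1.42 on the log2 scale. Of the 12 markers all were detected, 6 rose and 6 fell, so the list did not move one way. Its median log2 fold change was -0.05 and changed sign with library totals alone (0.12) or, barely, without con replicate 3 (0.0037), and was -0.25 with GC and length trends removed.

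Transcripts of other tissues also separated the groups, and their part in the results below was not tested. All 26 skin keratinocyte genes fell in BSF_C, with summed levels of 585 to 605 CPM in BSF_C, nearly all of it Sfn and Perp, and 1962 to 2199 CPM in con. Calm4, a calmodulin-like protein found in epidermis, had no count in BSF_C, against 203, 255 and 224 CPM in con, at least 1883-fold lower with 3 counts per group as the floor. Flg, the filaggrin precursor of the skin barrier, was at 0 in BSF_C, against 117, 121 and 122 CPM in con, and was at least 995-fold lower. Krt14, the keratin of basal skin cells, averaged 0.0390 CPM in BSF_C and 58.4 CPM in con. None of the 26 overlapped between the groups, where 72.5% of all genes tested did not overlap. Of the 26, 11 had no count in BSF_C. Calm4 had no count in BSF, LSF or DSF either, and so passed the filter through con alone. A gene with no count in a group can be called in 1 direction only, here and in the lists below. Such calls are therefore no separate support for a difference of the list.

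Heart and skeletal muscle, kidney, brain and fibroblast transcripts mostly ran the other way, and smooth muscle transcripts did not. Myh6, the myosin heavy chain of heart atria, had 55.9, 65.5 and 59.6 CPM in BSF_C, against no count in con, at least 282-fold higher. Myoglobin (Mb) had 37.5, 47.3 and 39.2 CPM in BSF_C and no count in con, at least 193-fold higher. Of 19 tested heart and skeletal muscle genes in a list of 22, 14 rose and 1 fell, and they summed to 428 to 481 CPM in BSF_C and 129 to 140 CPM in con, where Ldb3 alone made up 117 CPM. Ldb3 was also the 1 that fell, and its sign changed with library totals alone or with GC and length trends removed. Among brain genes 15 of 20 rose and 2 fell, with sums of 454 to 463 CPM in BSF_C and 423 to 442 CPM in con, and Syt1, a synaptic vesicle protein, was at 0 in con. Kidney tubule genes rose in 9 of 11 tested and fell in 1, and summed to 107 to 184 CPM in BSF_C and 82.8 to 122 CPM in con, and 3 rose when only the groups compared were fitted. Fibroblast and matrix genes rose in 14 of 16, with sums of 127 to 182 CPM in BSF_C and 33.2 to 42.8 CPM in con. In con, Ccn1, which was not called, averaged 25.2 CPM of that sum. Endothelial genes rose in 7 of 11 and fell in 1, with 3 higher in thinned libraries and 2 when only the groups compared were fitted. Smooth muscle genes rose in 2 and fell in 3 of 5 tested, and summed to 223 to 246 CPM in BSF_C and 260 to 266 CPM in con. Liver and exocrine pancreas genes rose in 3 and fell in 1 of 6 tested. Albumin (Alb) was near 0 in both groups, at 0.162 CPM in BSF_C and 0.138 CPM in con.

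Leukocyte transcripts were higher in BSF_C although the sort gated CD45+ cells away. Ptprc, which encodes CD45, had 13.3, 16.9 and 17.9 CPM in BSF_C, against 2 counts over the 3 con libraries (0, 0.416 and 0 CPM), 112 times as high (exact 95% counting limits 30.8 and 928). Cd8a, a coreceptor of cytotoxic T cells, had 35.7, 41.0 and 39.1 CPM in BSF_C, against 0.413, 1.25 and 0.461 CPM in con. Granzymes, the killing proteases of intraepithelial lymphocytes, followed, with Gzma at 46.4, 49.9 and 47.7 CPM in BSF_C against 0.206, 0 and 0.230 CPM in con. In total 17 of 26 tested leukocyte genes rose and 5 fell, and they summed to 356 to 395 CPM in BSF_C and 252 to 268 CPM in con. The 5 that fell were Itgae, Itgam, Csf1r, Cd68 and Cd14. Itgam encodes CD11b, which was gated away as well, and so went the other way from Ptprc. The last 3 mark monocytes and macrophages. Il2rb, the interleukin 2 receptor chain of lymphocytes, was among the genes with the largest rises, at 4.96 ± 0.25. In bulk RNA, fewer cells of a type and less RNA per cell cannot be told apart.

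**Figure D2:**
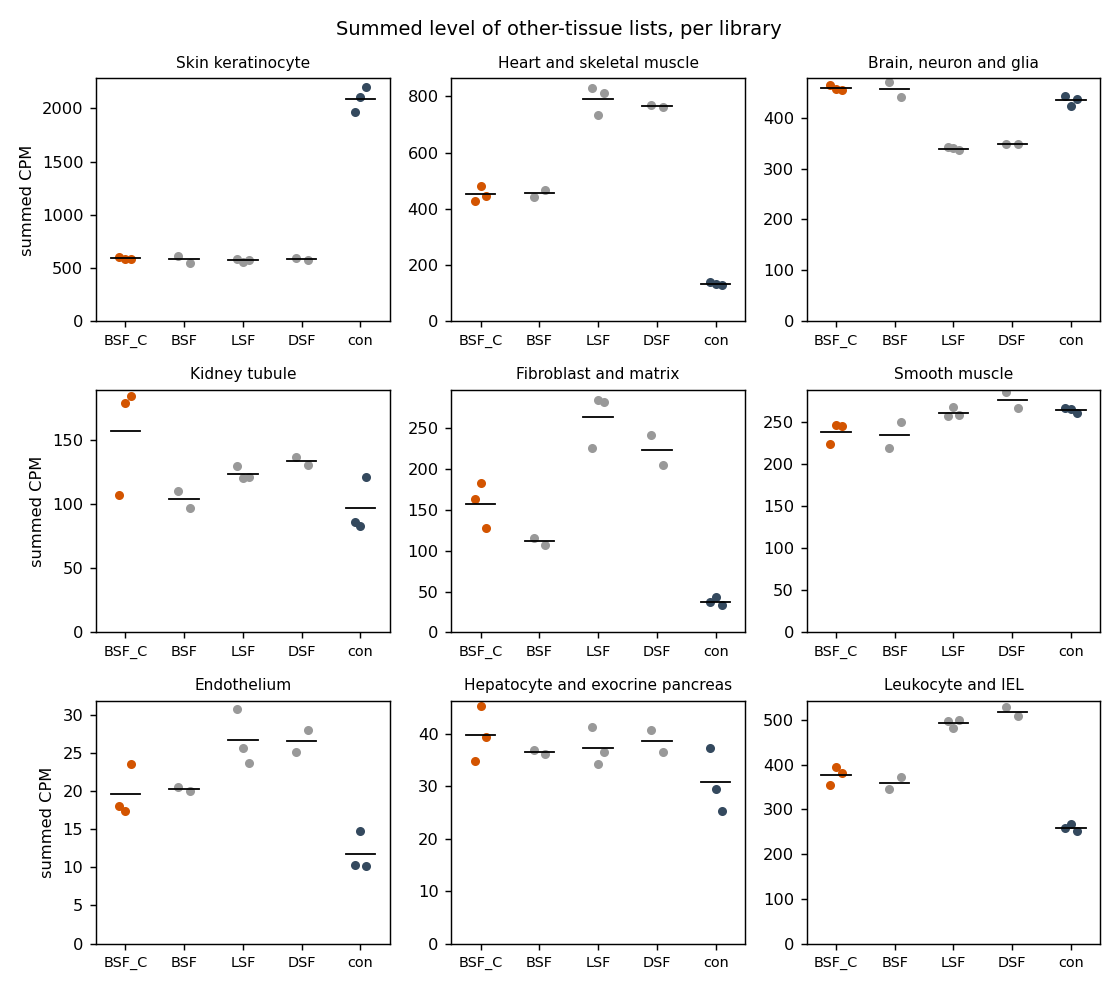
Summed CPM of 9 lists of other-tissue genes (vertical, from 0, own scale per panel) in each library of the 5 groups, with the group mean as a line. Skin genes are high in con alone, heart and muscle, fibroblast and leukocyte genes are lowest in con, and BSF_C lies close to BSF in most panels.

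Genes of fat absorption rose in BSF_C. Apoa4 (chromosome 9, 46240696 to 46243459), an apolipoprotein packed into chylomicrons, had 14716, 14302 and 13470 CPM in BSF_C, against 938, 910.3 and 1089 CPM in con. The groups were far apart, and the log2 fold change was 3.86 ± 0.05 (edgeR quasi-likelihood, adjusted p = 4.51e-52). Apoa1, of the same gene cluster and the main protein of high-density lipoprotein, had 7259, 7057 and 6677 CPM in BSF_C, against 881, 906 and 1062 CPM in con. Apob, the scaffold of the chylomicron, had 2465, 2552 and 2559 CPM in BSF_C, against 679, 757 and 630.0 CPM in con. Mttp, which loads lipid onto that scaffold, rose by 0.20, and Apoc3, which slows the clearance of chylomicrons, by 4.58, with means of 39.7 CPM in BSF_C and 1.64 CPM in con. Of 17 chylomicron genes 16 rose and 1 fell, with a median of 0.94, the exception being the export receptor Surf4, which fell by 0.71 on the log2 scale.

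Uptake and re-esterification of fatty acids moved with them in 15 of 19 tested genes, while 2 fell (median 0.63). Fabp2, the intestinal fatty acid binding protein, had 149, 153 and 162 CPM in BSF_C, against 17.3, 19.8 and 16.4 CPM in con, and rose by 3.11 ± 0.09. Slc27a4, a fatty acid transporter of enterocytes, rose by 1.57 ± 0.06, the scavenger receptor Cd36 by 3.54, and Dgat1, which completes triglyceride, by 1.37 ± 0.05. The 2 that fell were the desaturase Scd2, by 0.62, and the acyltransferase Agpat3, by 0.40. Fabp6, the ileal bile acid binder, had too few counts to test. All 8 sterol absorption genes rose (median 0.89), among them Abcg5 and Abcg8, whose products return sterols to the lumen, by 0.84 and 0.28, and Npc1l1, the cholesterol importer, by 0.33.

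Sugar digestion and transport showed the same direction in 18 of 20 genes, with a median of 1.49. Lct (chromosome 1, 128284756 to 128328318), the lactase of the brush border, had 1540, 1452 and 1453 CPM in BSF_C, against 128, 129 and 160.3 CPM in con, and rose by 3.42 ± 0.06. Slc2a2, the glucose transporter of the basolateral membrane, had 287, 282 and 285 CPM in BSF_C, against 46.7, 50.7 and 51.6 CPM in con. No library of one group reached the range of the other in either gene. The trehalase Treh rose by 3.12, sucrase-isomaltase (Sis) by 1.70, the fructose transporter Slc2a5 by 1.51, G6pc, which frees glucose from its phosphate, by 2.99, and Slc5a1, the sodium-coupled glucose importer of the brush border, by 0.26. Hk2, a hexokinase that traps glucose in the cell, fell to 23.8, 28.1 and 22.04 CPM in BSF_C, against 117, 98.4 and 121 CPM in con. Pck2, the mitochondrial counterpart of Pck1, was called lower by 0.26, a call lost with library totals alone, with trends of GC content and length removed, or with replicate numbers as a block.

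Peptidases and amino acid transporters rose in 21 of 26 and fell in 4 (median 1.18). Mme, the brush border endopeptidase neprilysin, had 448, 479.8 and 463 CPM in BSF_C, against 46.5, 60.5 and 39.8 CPM in con. Ace, which trims dipeptides from peptides, rose by 2.79 ± 0.06, the enteropeptidase Tmprss15, which starts the activation of pancreatic proteases, by 3.54, the peptide importer Slc15a1 by 1.94 and the neutral amino acid importer Slc6a19 by 1.76. Those that fell included the glutamate transporter Slc1a1, by 1.34, Slc7a8, by 0.93, and Slc38a2, by 0.79. Enpep was called lower by 0.17 and was at 0.000440 with library totals alone.

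The microvillus scaffold rose in 14 of 18 genes and fell in 3 (median 0.69). Espn, which bundles actin, had 150.1, 138 and 138 CPM in BSF_C, against 22.5, 24.5 and 22.6 CPM in con. Cdhr2 and Cdhr5, the protocadherins that link the tips of microvilli, rose by 2.05 and 1.31, villin (Vil1) by 0.99 and plastin 1 (Pls1) by 1.58. Myo1d, Ush1c and Baiap2l1 fell, by 1.00, 0.42 and 0.55. Of 22 tested genes for iron, vitamins and calcium, 16 rose and 4 fell (median 1.46), while Trpv6 had too few counts. Slc46a1, the folate importer, rose by 2.69 ± 0.08, Amn and Cubn, the vitamin B12 receptor pair, by 3.27 and 4.97, and the ferritin chain Fth1 by 1.78. Slc40a1, the iron exporter ferroportin, fell by 0.90, Vdr, the vitamin D receptor, by 0.78, and Isx, a repressor of vitamin A uptake, by 1.09.

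**Figure D3:**
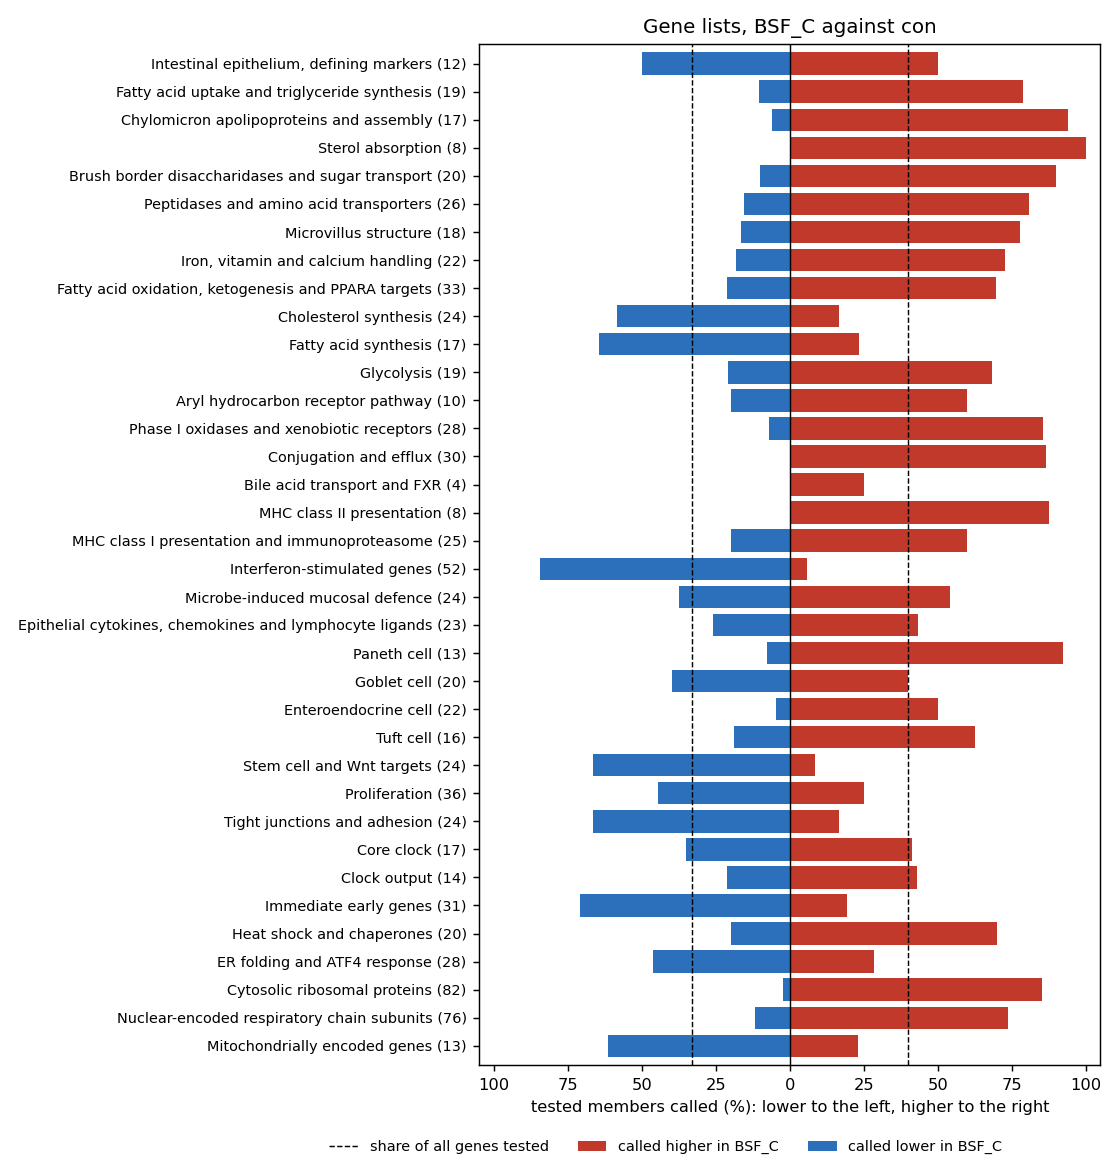
Share of tested members called higher (right, red) and lower (left, blue) in BSF_C against con for 36 gene lists, in percent, with the number tested in brackets. Dashed lines mark the shares of all genes tested, 39.8% higher and 33.2% lower. Absorption, detoxification, Paneth and ribosomal lists lie beyond the line on the right, and interferon, immediate early, stem cell and junction lists on the left.

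Lipid synthesis ran opposite to lipid absorption. Cholesterol synthesis genes fell in 14 of 24 and rose in 4 (median -0.44). Srebf2, the transcription factor that induces this pathway, had 144, 136 and 130.1 CPM in BSF_C, against 275, 259 and 309 CPM in con, and fell by 1.04 on the log2 scale. Of the enzymes, lanosterol synthase (Lss) fell by 1.15 and squalene epoxidase (Sqle) by 0.99. Mvd and Ebp rose by 0.66 and 0.60, the call on Mvd being lost with GC and length trends removed (0.39), while the small rises of Fdps (0.28) and Stard4 (0.12) had overlapping libraries and were lost under 7 and 10 of the alternative settings. In fatty acid synthesis 11 of 17 tested genes fell and 4 rose (median -0.49). The desaturases Fads1 and Fads2, which make polyunsaturated fatty acids, both fell by 1.27 on the log2 scale. Fatty acid synthase (Fasn) fell by 0.26, and Srebf1, a transcription factor of the pathway, rose by 1.13 ± 0.07.

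Fatty acid oxidation moved upward in 23 of 33 tested genes and downward in 7 (median 0.44), and its gatekeeper was among the 7. Cpt1a (chromosome 19, 3322334 to 3385733), which commits fatty acids to the mitochondrion, had 224, 206 and 223 CPM in BSF_C, against 684, 696 and 766 CPM in con, and fell by 1.72 on the log2 scale. Ppara, the receptor that drives the pathway, fell by 0.52, and Hadha by 0.41. Acaa1b, a peroxisomal thiolase, had 49.99, 48.8 and 56.8 CPM in BSF_C, against 0.206, 0.624 and 1.15 CPM in con. Acadvl, a dehydrogenase of very long chains, rose by 1.65 ± 0.07, Pdk4, which restrains glucose oxidation, by 1.87, and Angptl4, an inhibitor of lipoprotein lipase, by 3.24. Glycolysis genes rose in 13 and fell in 4 of 19 (median 0.99). Eno1, an enolase, rose by 2.16 ± 0.07 and Gapdh by 1.30 ± 0.05, while Slc2a1, the glucose transporter also found in red blood cells, fell by 1.67.

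Most enzymes that detoxify foreign compounds and steroids rose, while genes of the aryl hydrocarbon receptor pathway were divided. The aryl hydrocarbon receptor senses plant and microbial indoles, and Cyp1a1 (chromosome 9, 57687928 to 57703824) is its best-known target. Cyp1a1 had 261, 239.7 and 244 CPM in BSF_C, against 10.9, 16.6 and 13.1 CPM in con, and the log2 fold change was 4.19 ± 0.09 (edgeR quasi-likelihood, adjusted p = 5.97e-41). Its promoter is shown because this gene carries the result for the pathway. Of the pathway genes, 5 of 8 with a promoter in the table (62.5%) held the receptor's core motif GCGTG on either strand, against 32.4% of all 32851 mouse promoters. The 5 were Ahrr, Arnt, Cyp1a1, Cyp1b1 and Tiparp, of which Arnt fell and Ahrr was not called. These genes were listed for their part in the pathway, so the share says nothing about the change in BSF_C. The RefSeq sequence on GRCm38.p6, chr9:57697363-57697662 on the + strand, from 250 bases before to 50 after a start of the gene, has the motif in capitals.
Cyp1a1: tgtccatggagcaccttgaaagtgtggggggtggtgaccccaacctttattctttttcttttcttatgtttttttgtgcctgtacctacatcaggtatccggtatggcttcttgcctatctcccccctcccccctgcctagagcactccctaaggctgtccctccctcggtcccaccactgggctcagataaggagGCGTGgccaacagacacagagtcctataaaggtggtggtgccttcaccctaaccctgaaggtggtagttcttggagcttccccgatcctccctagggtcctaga
A match is a description of the letters and not evidence of binding. Of 10 tested genes of the pathway 6 rose and 2 fell. Tiparp, a target that feeds back on the receptor, rose by 0.95 ± 0.10 and Ahr itself by 0.35, while its partner Arnt fell by 0.82 and Nqo1 by 0.33, its call being lost with library totals alone. Ahrr, the repressor, was at 0.403 CPM in BSF_C and 0.360 CPM in con and was not called.

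Phase I oxidases rose in 24 of 28 tested genes and fell in 2 (median 1.75), but the summed level of the list was 5387 to 5594 CPM in BSF_C and 5493 to 6417 CPM in con, so it was not higher in BSF_C. Cyp3a11, a drug and bile acid oxidase, had 173, 174 and 169 CPM in BSF_C, against 0.619, 0.208 and 0.921 CPM in con, where it rested on 8 counts. Cyp2b10, a target of the xenobiotic receptor CAR, had 119, 126 and 111 CPM in BSF_C, against 4.75, 4.57 and 3.69 CPM in con. The groups did not overlap in either gene. Aldh1a1, which makes retinoic acid, rose by 3.29 ± 0.08, with 185, 181 and 194 CPM in BSF_C, against 19.4, 18.3 and 19.6 CPM in con. The receptors themselves moved little, with Nr1i2 (PXR) up by 0.22 and Nr1i3 (CAR) not called, at 121 CPM in BSF_C and 117 CPM in con. Cyp2s1 fell by 1.17 and Aldh1b1 by 1.22. The families are made of close paralogs, and no source used here gives the rule for reads shared between them, so single members are uncertain, as are those of the carboxylesterases below. Conjugating enzymes and efflux pumps rose in 26 of 30 and fell in none (median 1.07). Gstm3, a glutathione transferase, had 284, 282 and 271 CPM in BSF_C, against 64.0, 59.7 and 65.2 CPM in con, and the carboxylesterases Ces2a and Ces2c rose by 2.74 and 2.63. Of the 9 bile acid genes only 4 could be tested, 1 of which rose, the exporter subunit Slc51b, by 0.71. That call was lost with GC and length trends removed (0.29).

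Interferon-stimulated genes fell in BSF_C. Interferons induce them through the transcription factor complex ISGF3, which binds the interferon-stimulated response element, and gut microbes are known to keep some of them on in mice. Oasl2 (chromosome 5, 114896936 to 114912234), an antiviral protein, had 86.6, 91.1 and 86.6 CPM in BSF_C, against 623, 643 and 688 CPM in con, and fell by 2.89 on the log2 scale (edgeR quasi-likelihood, adjusted p = 1.98e-42). Oas2, which makes the second messenger for RNA decay, had 8.35, 6.67 and 6.24 CPM in BSF_C, against 133, 137 and 159 CPM in con. Irgm1, a GTPase that controls vacuoles around pathogens, had 66.0, 75.4 and 65.5 CPM in BSF_C, against 351, 354 and 336 CPM in con. None of these overlapped. Of 52 genes of the list (Mx1 and Mx2 were not analysed here) 44 fell and 3 rose, with a median of -1.25 and sums of 2699 to 2738 CPM in BSF_C and 7258 to 7706 CPM in con.

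The fall ran through sensors, factors and effectors. Of the factors, Irf7 fell by 2.04 on the log2 scale and Irf9 by 1.04. Among the sensors, Ddx58, which detects viral RNA, fell by 1.21, and Ifih1 was not called, at 28.1 CPM in BSF_C and 26.9 CPM in con. Effectors that fell included Ifit3 by 2.26, Rtp4 by 2.27, Slfn5 by 2.74 and Lgals3bp, a secreted glycoprotein, by 1.87. The 3 that rose were Irf1 (0.13), Ifi35 (0.32) and Ifi27 (1.16), and the call on Irf1 was lost under 10 alternative settings and that on Ifi35 with GC and length trends removed. Not called were Ifit1, Ifih1, Ifi27l2b, Gbp2 and Gbp7.

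Promoters of 3 genes that fell are shown because they hold the core of the interferon-stimulated response element, GAAA, 2 free bases and GAAA, in a window of 250 bases before to 50 after the start. Of the genes called lower that had a promoter in the table, 20 of 34 held it on either strand (53.5% of their 43 promoters), against 3.44% of all mouse promoters. Over the whole list, uncalled and higher genes included, the share was alike, at 24 of 40 genes (54% of promoters). The share therefore describes a list of interferon-stimulated genes and says nothing about the fall. Sequences are from RefSeq on GRCm38.p6, all on the - strand, with the motif in capitals, and overlapping matches are run together. Oas3 and Isg15 were chosen after their values were seen. Irgm1 lies at chr11:48871371-48871670, Oas3 at chr5:120777610-120777909 and Isg15 at chr4:156200769-156201068.
Irgm1: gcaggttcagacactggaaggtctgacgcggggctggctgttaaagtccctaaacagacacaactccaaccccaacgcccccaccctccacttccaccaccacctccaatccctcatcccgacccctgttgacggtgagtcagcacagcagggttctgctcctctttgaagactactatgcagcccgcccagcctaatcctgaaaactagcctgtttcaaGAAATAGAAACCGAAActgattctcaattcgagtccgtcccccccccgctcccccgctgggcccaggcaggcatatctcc
Oas3: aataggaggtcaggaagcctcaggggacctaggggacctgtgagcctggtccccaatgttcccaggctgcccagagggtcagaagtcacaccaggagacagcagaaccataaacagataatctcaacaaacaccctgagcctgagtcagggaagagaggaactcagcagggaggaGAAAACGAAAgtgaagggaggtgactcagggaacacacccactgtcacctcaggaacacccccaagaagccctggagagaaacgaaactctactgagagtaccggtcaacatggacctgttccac
Isg15: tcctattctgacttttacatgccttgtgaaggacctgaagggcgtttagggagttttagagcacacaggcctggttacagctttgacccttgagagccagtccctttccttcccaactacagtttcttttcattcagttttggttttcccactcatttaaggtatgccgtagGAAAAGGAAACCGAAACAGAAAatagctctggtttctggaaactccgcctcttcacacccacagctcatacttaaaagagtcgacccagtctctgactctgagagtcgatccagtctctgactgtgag
Oas3, a maker of the same second messenger as Oas2, had 22.7, 20.6 and 18.5 CPM in BSF_C, against 153, 149.9 and 176 CPM in con. Isg15, a ubiquitin-like modifier, had 20.4, 21.4 and 22.5 CPM in BSF_C, against 57.0, 68.0 and 73.9 CPM in con. As for the receptor motif above, a match describes the letters only.

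Antigen presentation genes were mostly higher. MHC class II, which presents peptides to helper T cells, rose in 7 of 8 tested genes of a list of 13 (median 1.70). Cd74, its invariant chain, had 148, 136 and 137 CPM in BSF_C, against 42.3, 33.1 and 37.5 CPM in con. H2-Ab1 had 53.3, 44.1 and 39.1 CPM in BSF_C, against 7.64, 8.11 and 5.76 CPM in con, and H2-Aa rose by 3.06 ± 0.18. Ciita, the factor that switches the class on, rose by 0.64. The leukocyte genes above rose as well, and some leukocytes carry MHC class II, so the source of these transcripts was not tested. MHC class I and the immunoproteasome rose in 15 of 25 and fell in 5 (median 0.37). H2-K1 rose by 1.02 ± 0.05 and B2m by 1.10, whereas Nlrc5, the activator of class I, fell by 1.52 and the peptide pump Tap1 by 1.06. Classical and Qa genes are near-identical copies, so single members are uncertain.

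Mucosal defence was divided, with 13 of 24 tested genes higher and 9 lower (median 0.56). Duox2 (chromosome 2, 122279247 to 122298449), the oxidase that releases hydrogen peroxide at the apical surface, had 15.0, 12.3 and 14.7 CPM in BSF_C, against 281, 249.7 and 300.1 CPM in con. It fell by 4.31 on the log2 scale (edgeR quasi-likelihood, adjusted p = 3.47e-42), and its maturation factor Duoxa2 fell by 2.60. Nlrp6, an inflammasome sensor, fell by 1.11 and the gasdermins Gsdmc2, Gsdmc3 and Gsdmc4 by 2.11, 3.13 and 2.34. Nlrp10 also fell, to 0.441 CPM in BSF_C against 13.2 CPM in con. Antimicrobial lectins rose, with Reg1 at 199, 199 and 193 CPM in BSF_C, against 31.2, 31.6 and 29.7 CPM in con, Reg3b up by 0.59 and Reg3g by 0.49. Gsdmd, the pore-forming gasdermin, rose by 1.80 ± 0.07 and Pigr, the carrier of secreted antibodies, by 0.52. Epithelial cytokines and lymphocyte ligands rose in 10 and fell in 6 of 23 tested, shares near those of all genes, and their median of 0.23 changed sign under some settings. The alarmin Il33 rose by 1.24 and Il15, which sustains intraepithelial lymphocytes, by 0.98, while Cx3cl1 fell by 0.68.

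**Figure D4:**
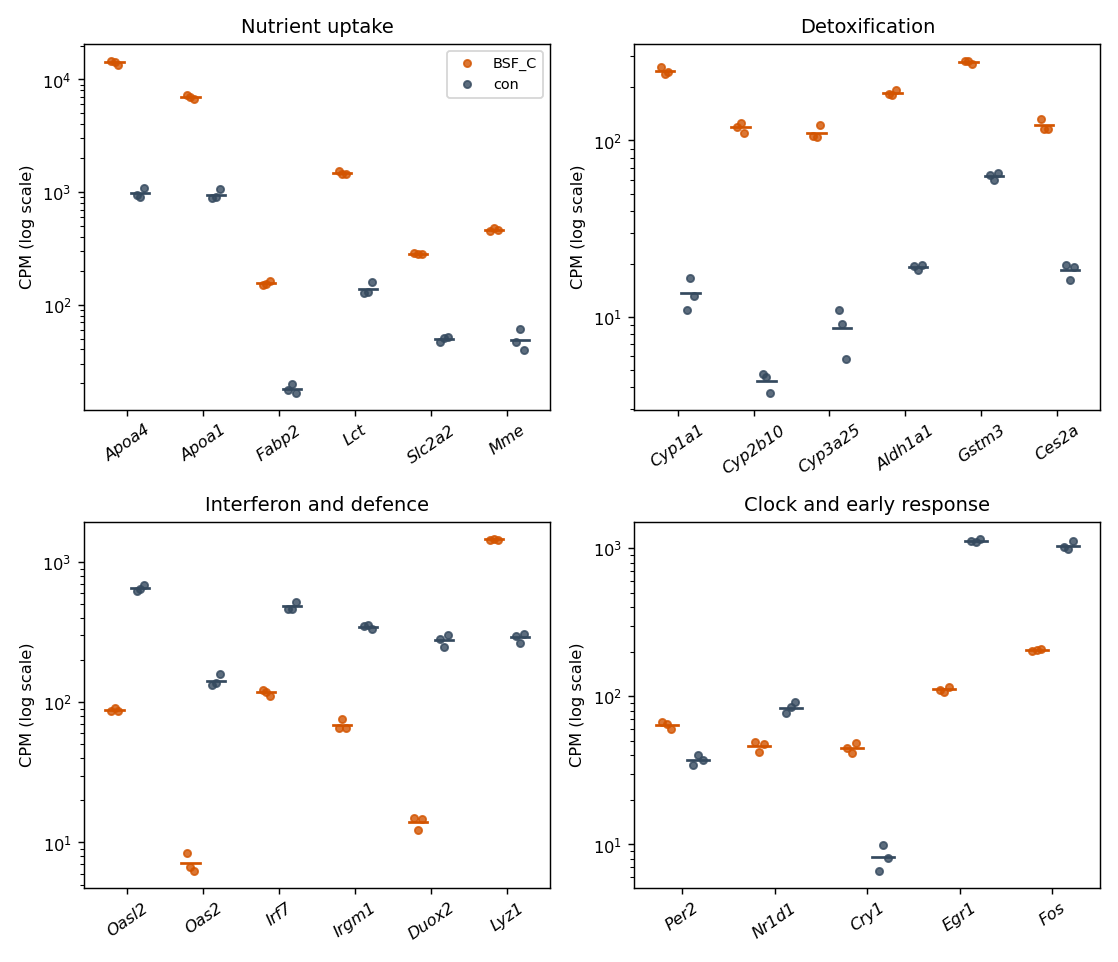
CPM of 23 genes in each library of BSF_C (orange, left of each pair) and con (dark blue, right), on log axes, with the group mean as a line. In every gene drawn the 3 BSF_C libraries lie on one side of the 3 con libraries, as far apart as 14163 CPM in BSF_C and 979 CPM in con for the means of Apoa4.

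Paneth cell genes rose in 12 of 13 tested members of 20, with a median of 2.32 and sums of 1979 to 2023 CPM in BSF_C and 379 to 427 CPM in con. Lysozyme (Lyz1, chromosome 10, 117287797 to 117292868) had 1435, 1472 and 1447 CPM in BSF_C, against 297, 267 and 309 CPM in con, and rose by 2.32 ± 0.05. Defa24, an alpha-defensin, had 95.4, 100.9 and 99.7 CPM in BSF_C, against 11.6, 10.6 and 10.8 CPM in con, and Itln1, an intelectin, rose by 3.25 ± 0.10. The defensins are near-identical and single members are uncertain. Spink4, shared with goblet cells, was the 1 that fell, by 0.65.

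Goblet cell genes did not shift together, with 8 higher and 8 lower of 20 and a median of -0.11 that changed sign with library totals alone. Zg16, a lectin of the mucus, had 861, 819.7 and 779.6 CPM in BSF_C, against 299, 296 and 357 CPM in con. Muc2, the gel-forming mucin, rose by 0.27, Fcgbp, a mucus cross-linker, fell by 0.75 and the membrane mucin Muc3 by 1.53. Enteroendocrine genes rose in 11 of 22 tested and fell in 1 (median 0.50). Secretin (Sct) had 43.1, 37.8 and 38.4 CPM in BSF_C, against 12.8, 12.9 and 11.3 CPM in con, and somatostatin (Sst) rose by 2.41 ± 0.21. The lineage factors Neurog3, Neurod1 and Pax6 were not called. Chgb, a granule protein, fell by 0.25, a call lost with library totals alone. In tuft cells, the chemosensory cells that respond to parasites, 10 of 16 tested genes rose and 3 fell (median 1.34). Dclk1 had 17.1, 22.5 and 19.1 CPM in BSF_C, against 5.16, 2.91 and 6.45 CPM in con, while the master factor Pou2f3 was not called. Cd24a, which other epithelial cells also express, fell by 0.85, and the summed tuft list was lower in BSF_C, at 329 to 358 CPM, than in con, at 494 to 510 CPM.

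Stem cell and Wnt target genes fell in 16 of 24 and rose in 2 (median -0.70). Ephb2 (chromosome 4, 136647539 to 136835988), a receptor that positions cells along the crypt, had 94.8, 98.9 and 91.9 CPM in BSF_C, against 281, 288 and 329 CPM in con. Rnf43, a brake on Wnt signalling, had 70.6, 71.1 and 75.2 CPM in BSF_C, against 184, 169 and 191 CPM in con, and fell by 1.33 on the log2 scale. Lgr5, the stem cell marker, fell by 0.99, Axin2 by 1.04, Myc by 1.01 and Olfm4 by 0.70. Ascl2, a stem cell transcription factor, went against the list, with 24.2, 24.5 and 22.9 CPM in BSF_C and 2.89, 6.45 and 7.14 CPM in con, and rose by 2.13 ± 0.19. Clu also rose, from very few counts in con.

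Of 36 proliferation genes, 16 fell and 9 rose, and their median of -0.15 changed sign with library totals alone. Mki67, the general marker of cycling cells, was not called, at 296, 314 and 307 CPM in BSF_C and 297, 363 and 268 CPM in con. E2f2 fell by 1.45, the mitotic factor Foxm1 by 1.30 and cyclin D1 (Ccnd1) by 1.19. Top2a, a topoisomerase of dividing cells, rose by 1.58 ± 0.09 and the replication clamp Pcna by 0.92 ± 0.07. Calls on Mcm2, Mcm5, Mcm6 and Hells were small and were lost under several settings, and Hells was at -0.04 with GC and length trends removed. Junction genes fell in 16 of 24 and rose in 4 (median -0.43). Cldn2, a claudin that forms sodium and water pores in the crypt, had 287, 278 and 277 CPM in BSF_C, against 1049, 936 and 1157 CPM in con. Cldn23 fell by 1.52, Cldn3 by 0.65 and occludin (Ocln) by 0.21, and Cldn1, a claudin of skin as well, averaged 0.122 CPM in BSF_C and 10.2 CPM in con. Tjp1 rose by 0.51 ± 0.08.

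Clock genes changed singly and not as a list. The clock is a loop in which the activators Clock and Arntl (Bmal1) induce the repressors Per and Cry, and the receptors of the Rev-erb and Ror families set the level of Arntl. Per2 had 67.1, 65.0 and 59.99 CPM in BSF_C, against 34.3, 40.3 and 37.3 CPM in con, and rose by 0.78 ± 0.09. Cry1 (chromosome 10, 85131700 to 85185064) had 44.6, 41.4 and 48.1 CPM in BSF_C, against 6.61, 9.98 and 8.06 CPM in con, and rose by 2.44 ± 0.13. Cry2 rose by 1.33 ± 0.13 and Clock by 0.59 ± 0.07, whereas Per1 fell by 0.64. Nr1d1, which encodes Rev-erb alpha, had 49.1, 42.1 and 47.9 CPM in BSF_C, against 77.0, 84.2 and 91.0 CPM in con. Rora, of the Ror family, fell by 2.19.

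Arntl itself was at 30.7, 28.2 and 26.8 CPM in BSF_C and 30.6, 33.9 and 33.9 CPM in con, which overlap, with a log2 fold change of -0.20 ± 0.10 (edgeR quasi-likelihood, adjusted p = 0.0815). It was called lower without BSF_C replicate 1 (-0.26) or without con replicate 1 (-0.25). Dbp, an output factor with strong daily cycles, was at 7.001, 8.54 and 7.47 CPM in BSF_C and 6.61, 8.11 and 10.6 CPM in con (-0.12 ± 0.20), and was called lower, by 0.61, with GC and length trends removed. In all 7 of 17 core clock genes rose and 6 fell, near the shares of all genes, with a median of 0.06 that changed sign across settings. Of 14 clock output genes 6 rose and 3 fell, among them Nfil3, a repressor of Dbp targets, which fell by 0.99. Without a sampling hour, phase and level cannot be told apart.

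Immediate early genes, which cells switch on within minutes of a stimulus or of handling, fell in 22 of 31 and rose in 6 (median -0.90). Egr1 had 111, 107 and 116 CPM in BSF_C, against 1121, 1100 and 1163 CPM in con, and fell by 3.34 on the log2 scale. Fosb fell by 3.36, Fos by 2.34, Atf3 by 2.96 and Jun by 1.94. The libraries of the groups were far apart in each. Jund rose by 2.16 ± 0.09 and Nr4a3 by 2.76 ± 0.33. Heat shock genes rose in 14 and fell in 4 of 20 (median 0.91). The cytosolic chaperone Hsp90aa1 had 336, 336 and 338 CPM in BSF_C, against 67.5, 78.8 and 59.7 CPM in con, and the mitochondrial chaperonin Hspd1 rose by 1.37 ± 0.06. The 4 that fell were Hspa1a, Hspa1b, Dnajb1 and Bag3, by 1.95, 0.54, 0.66 and 0.78. Genes of protein folding in the endoplasmic reticulum and of the ATF4 response rose in 8 and fell in 13 of 28 (median -0.18). The chaperones Hspa5 and Hsp90b1 rose by 0.71 and 1.76, while the factors Xbp1 and Atf4 fell by 0.84 and 0.90 and Chac1, an ATF4 target, by 2.53.

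Genes for ribosomes and respiration rose in most cases, and values with the trends of GC content and transcript length removed are given beside them. Of 82 cytosolic ribosomal protein genes 70 rose and 2 fell (median 0.77, and 0.44 with GC and length trends removed). Rps2 had 2183, 2033 and 2028 CPM in BSF_C, against 633, 829 and 750.0 CPM in con. Rpl22 and Rpl27a were the 2 that fell, by 0.61 and 0.29, and the call on Rpl27a was lost with library totals alone. Nuclear-encoded subunits of the respiratory chain rose in 56 and fell in 9 of 76 tested (median 0.74, and 0.38 with those trends removed). Ndufv1, a complex I subunit, rose by 1.46 ± 0.07, while 3 of the 4 succinate dehydrogenase genes, Sdhb, Sdhc and Sdhd, fell, by 0.31, 0.38 and 0.37, and the call on Sdhb was lost under 3 settings. Of the 13 mitochondrially encoded genes 8 fell and 3 rose, and all 13 were lower with GC and length trends removed. They made up 9.63% ± 0.289 of counts in BSF_C and 11.7% ± 0.664 in con (SD, n = 3 each).

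By size of change, among genes that averaged 20 CPM or more on one side and held 10 counts or more on the other, Scand1 rose most, by 7.53 ± 0.19. It had 148, 129.9 and 127 CPM in BSF_C, against 0.413, 0.416 and 1.38 CPM in con. Cebpb (chromosome 2, 167688915 to 167690418), a transcription factor of inflammation and metabolism whose gene has no intron, had 136, 134 and 129 CPM in BSF_C, against 0.619, 1.46 and 0.921 CPM in con, and rose by 7.03 ± 0.15. Both were near the counting floor in con. Mmp11, a matrix protease, rose by 6.15, Leap2, a gut and liver peptide that opposes the hunger hormone ghrelin, by 4.96, Pnmal2 by 4.89, Acta1, the actin of skeletal muscle, by 4.73 and Paqr9 by 4.60. Ndn, a maternally imprinted gene of neurons, had no count in con, against 25.2, 23.3 and 22.2 CPM in BSF_C. At the other end, Asprv1, a protease of the epidermis, had 1.11, 0.468 and 0.490 CPM in BSF_C, against 176, 215 and 203 CPM in con, and fell by 8.14 on the log2 scale. Of other genes of cornified skin, Krt1 fell by 6.77, Krt10 fell by 4.46, Sbsn fell by 5.32 and Cdsn was at -4.59, and Hrnr and Rptn of the same tissue had no count in BSF_C. Elovl4, which makes very long fatty acids for the skin barrier, fell by 5.18, Iqcn by 6.39 and B3galt5, a glycosyltransferase, by 3.92.

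Set beside the breakfast skipping group itself, BSF_C differed little. Against BSF, the same test called 19 of 14300 genes, 15 higher (0.105%) and 4 lower (0.028%). An unadjusted p under 0.05 was found for 573, a share of the genes tested below 0.05, so that number does not show further differences. With DESeq2's Wald test 2 were called and with limma-voom 4. Ccn2 (chromosome 10, 24595442 to 24598683), a matrix protein induced by tension and growth factors, had 31.4, 30.4 and 21.5 CPM in BSF_C, against 1.48 and 1.89 CPM in BSF, and the log2 fold change was 4.01 ± 0.55 (edgeR quasi-likelihood, adjusted p = 1.28e-05). This call was lost with DESeq2 (adjusted p = 0.1502) and with limma-voom (adjusted p = 0.517). Spp1, the secreted phosphoprotein osteopontin, had 35.3, 95.7 and 86.3 CPM in BSF_C, against 34.9 and 15.0 CPM in BSF, so that its lowest BSF_C library lay next to a BSF library. Ccn1, a relative of Ccn2, was higher by 1.30 ± 0.22 and Gpx3, a peroxidase secreted by the kidney, by 1.09 ± 0.15. The others included Cyp24a1, Ptgs2, Havcr1, Thbs1, Col1a2, Col1a1, Lox, Fn1, Fscn1 and Fstl1, at log2 fold changes of 1.09 to 4.30. BSF_C replicate 3 was the lowest of its group in Col1a1, at 5.88 CPM against 15.6 and 13.3 CPM, and in Thbs1, at 8.45 CPM against 23.1 and 21.7 CPM.

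Ccn2 was not high in BSF_C alone. It averaged 27.8 ± 5.45 CPM in BSF_C (SD, n = 3), 30.5 ± 21.5 in LSF (n = 3) and 18.7 ± 19.5 in DSF (n = 2), against 1.69 ± 0.293 in BSF (n = 2) and 0.636 ± 0.537 in con (n = 3). Fibroblast and matrix genes summed to 127 to 182 CPM in BSF_C, against 106 to 116 CPM in BSF, and 4 of the 16 were called higher. Those 4, Col1a1, Col1a2, Fn1 and Ccn1, are among the 15 genes higher than in BSF, so the sum is not separate from those calls. Kidney tubule genes summed to 107 to 184 CPM in BSF_C, against 97.4 to 111 CPM in BSF. In that list Gpx3, itself among the 15, averaged 80.6 CPM in BSF_C and 38.2 CPM in BSF. Havcr1, a marker of injured kidney tubules, was called and is also among the 15. How far such cells bear on the 15 genes was not tested.

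The 4 genes lower in BSF_C than in BSF were Gpnmb, Tyrp1, Dct and Gask1b. Tyrp1 and Dct are enzymes of melanin synthesis, and Gpnmb is a melanosome protein. Gpnmb had 14.7, 8.19 and 10.5 CPM in BSF_C, against 26.5 and 28.4 CPM in BSF, and no count in con. Tyrp1 had 35.5, 21.5 and 24.97 CPM in BSF_C, against 46.6 and 47.2 CPM in BSF, and no count in con. In both genes the BSF_C libraries lay between con and BSF. With DESeq2 the calls on Spp1, Ccn1, Gpx3, Gpnmb, Tyrp1 and Dct were lost as well. The calls on Spp1 and Ccn1 were also lost without BSF replicate 2, that on Tyrp1 without BSF replicate 2 or BSF_C replicate 2, and that on Dct under 8 settings. Of the 19 genes 18 were also called against con, the exception being Ccn1, at 22.1, 18.5 and 21.8 CPM in BSF_C, against 25.8, 27.7 and 22.1 CPM in con.

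**Figure D5:**
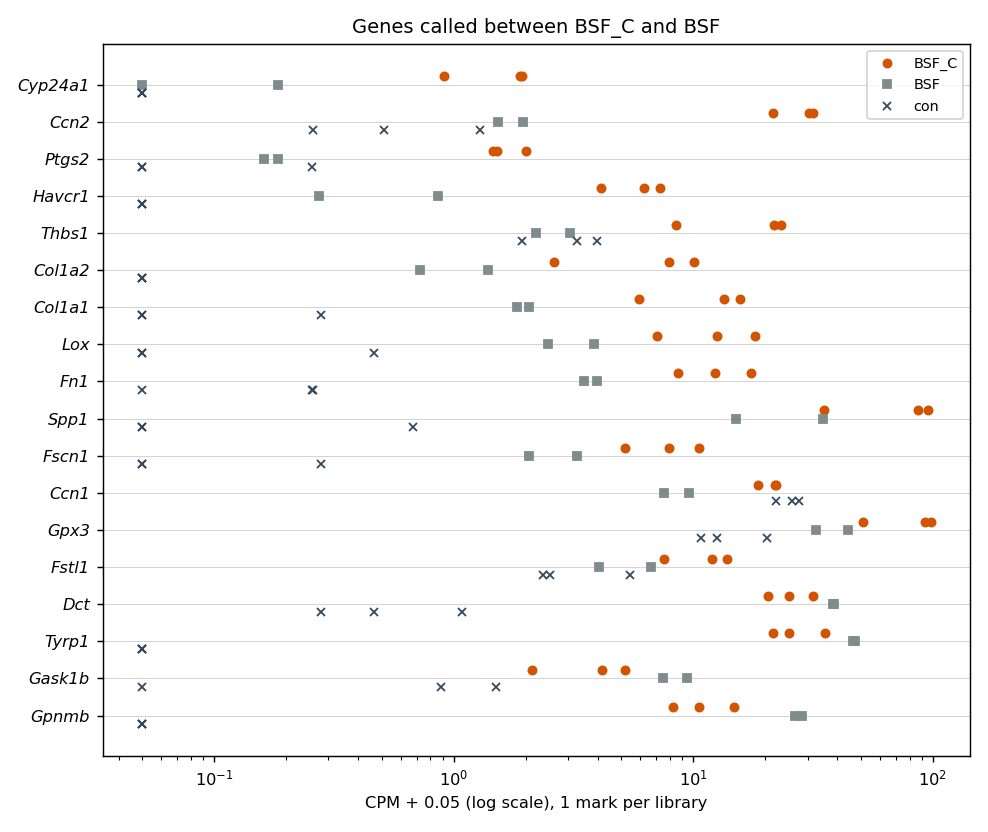
CPM with 0.05 added (horizontal, log axis) of 18 of the 19 genes called between BSF_C and BSF, 1 mark per library for BSF_C (orange circles), BSF (grey squares) and con (blue crosses). BSF_C lies above BSF in the upper 14 genes and below it in the lower 4, and con lies below BSF_C in each gene but Ccn1.

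Several genes described against con, Apoa4, Cyp1a1, Oasl2, Lyz1 and Per2 among them, were not called between BSF_C and BSF, whereas Tyrp1, Spp1 and Gpnmb, at or near 0 in con, were. Apoa4 averaged 14163 ± 634 CPM in BSF_C (n = 3) and 14029 ± 23.4 CPM in BSF (SD, n = 2), Cyp1a1 248 ± 10.96 and 247 ± 14.7 CPM, Oasl2 88.1 ± 2.59 and 84.6 ± 4.26 CPM, and Lyz1 1452 ± 18.9 and 1390 ± 17.3 CPM, BSF_C given before BSF. Per2 was at 64.0 ± 3.63 CPM in BSF_C and 68.5 ± 3.46 CPM in BSF, and Arntl at -0.23 on the log2 scale was not called. Among the 45 lists, members were called against BSF in the fibroblast list (4 higher) and in the iron, immediate early and kidney lists (1 higher each). By mean sums, LSF and DSF both lay on the same side of con as BSF_C in most of the 45 lists. The exceptions were the phase I oxidase, epithelial cytokine, enteroendocrine, core clock, brain and smooth muscle lists. Most list differences from con were thus not particular to BSF_C. Chylomicron genes had mean sums of 30235 CPM in BSF_C, 34081 in LSF, 23159 in DSF and 8221 in con. In that order Paneth genes were at 1996, 1522, 1692 and 408 CPM and cytosolic ribosomal protein genes at 15003.5, 14733, 15481 and 8680 CPM. Core clock genes did not follow this, at 1176, 1055, 926 and 969 CPM. For 2 of the single genes of this paragraph, levels in LSF and DSF are given as well. Cyp1a1 averaged 248 ± 10.96 CPM in BSF_C, against 71.9 ± 4.82 in LSF and 48.0 ± 0.170 in DSF, and Oasl2 88.1 ± 2.59 CPM in BSF_C, against 176 ± 8.71 in LSF and 177 ± 8.90 in DSF (SD, n = 3, 3 and 2), differences that were not tested here. A p that misses the threshold does not show that BSF_C and BSF were the same.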

How the data were processed

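RNA of sorted jejunal epithelial cells was sequenced, and the authors deposited 1 table of raw read counts per gene for 13 libraries. Per the submitters' processing notes, the tools named are STAR 2.7.2e, cutadapt 2.9, FastQC 0.11.8 and DESeq2 1.32.0, and the builds GRCm38 and mm10, with no role given for each. No source used here gives the counting rule for shared reads or the strand setting.

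Of 21868 genes, 21689 symbols (99.2%) matched GENCODE M21, the source of coordinates, GC content and length. Genes that passed filterByExpr (14300, with 99.9% of counts) were fitted over all 5 groups with edgeR 4.0.16 (trimmed means, quasi-likelihood F test, Benjamini-Hochberg adjustment, 8 residual degrees of freedom) in R 4.3.3. The SE is the log2 fold change divided by the square root of F. Python 3.11.15, pandas 2.3.3 and scipy 1.17.1 made summaries. The pipeline was tested on simulated data in which few genes changed, as many up as down. That test does not cover the scaling of libraries where most genes differ, as here.

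The rule for named genes took, against con, the 10 largest rises and 10 largest falls (at least 20 CPM in the higher group, 10 counts in the lower, no overlap), the 4 most abundant with no count in either group, and, per list, the 3 smallest p-values and members against the list's direction, plus 10 set genes. Against BSF it took up to 6 each way. Members and lists were chosen with earlier results of these data known. Alternatives used DESeq2 1.42.0, limma 3.58.1 voom, other scalings and filters, thinning, GC and length trends, and left-out replicates. Replicate numbers did not pair the samples. DSF columns are numbered 2 and 3 where the labels give 1 and 2. DSF entered the filter, the scaling, the estimate of spread, the principal components and group means, for which its replicate numbers are not needed. Some genes of the lists are not reported here by name.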

Additional observations from a re-analysis of the deposited data

How the results depend on the processing

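Against con, 4147 genes were called with the added limit of a 2-fold change, and the counts of genes called, higher and lower stayed within 1.5 times under all 15 other alternatives. With replicate numbers as a block 9065 were called, and without 1 replicate 9920 to 10159. The numbers did not pair the samples (correlations of -0.011, -0.006 and -0.067 between same-numbered BSF_C and con libraries), so the block says nothing about effect size. Of 284 named genes 240 kept direction and side of the threshold under every alternative. Reversed were Enpep (0.000440), Ldb3 (0.00937) and Dbp (0.0423) with library totals alone, Hells (-0.0387), mt-Nd2 (-0.87), mt-Nd4 (-0.65), mt-Cytb (-0.56) and Ldb3 (0.0236) with GC and length trends removed, and Dbp (0.0605) without con replicate 3. Left-out replicates put Dbp between -0.28 and 0.0605. The causes were not tested.

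The 19 genes called against BSF depended on the settings. DESeq2's Wald test called 2 (2 higher, 0 lower), limma-voom 4 (2 higher, 2 lower), no filter on low counts 30 (10 lower), a fit of only the groups compared 32 (12 lower), and the replicate block 52 (39 higher, 13 lower). Library totals alone gave 2 lower. Without 1 replicate 12 to 23 were called, 9 to 17 higher and 1 to 7 lower. Depth limits this comparison for genes of a few CPM, and BSF has 2 libraries.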
